A study of Mus musculus with 16 samples.

Results

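The genes described here belong to one signalling route and number 10 of the 26357 in the count table: Tnf, its receptor gene Tnfrsf1b, the NF-kB subunit genes Nfkb1, Nfkb2, Rela and Relb, the inhibitor genes Nfkbia, Tnfaip3 and Bcl3, and Tnfaip2. They were taken by symbol, all 10 were found, and all 10 passed the filter on low counts that left 14671 genes for testing. RNA was sequenced from 16 mouse samples in a study of the skin inflammation that the cytokine IL-23 drives in mice. Samples fell into 4 groups of 4: IL-23 or vehicle as the agent, each combined with a drug vehicle holding 0 mg per kg of compound (0 mpk), given per os (called oral here) or by the intraperitoneal route. The labels used here do not state the tissue, strain, sex, age, IL-23 dose or day of harvest, nor whether samples are separate animals, so p-values measure only the spread between these samples.

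Tumour necrosis factor (TNF) is an inflammatory cytokine that leukocytes and keratinocytes can release, and it signals through TNFR1, found on most cells, and TNFR2, found mainly on leukocytes and endothelium. Its receptors free NF-kB dimers, which otherwise sit in the cytoplasm bound to IkB proteins, and the freed dimers switch on inflammatory genes together with their own inhibitors. The canonical branch uses RelA with p50, the alternative branch RelB with p52, and cytokines of the IL-17 family also signal to NF-kB in keratinocytes.

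The tissue is not labelled. Keratinocyte markers (Krt5, Krt14, Krt1 and Krt10, 4 of 4 detected) summed to between 18300 and 26100 CPM (TMM-scaled counts per megacount, the level used throughout) in vehicle libraries and between 34400 and 64200 CPM in IL-23 libraries. Libraries held 6381990 to 14432930 counts. One library stood apart, number 28 of the IL-23 intraperitoneal group, at 724 CPM summed over 5 macrophage markers, 44.1 CPM over 5 T cell markers and 2050 CPM over 3 fibroblast markers. The remaining IL-23 libraries spanned 172 to 317, 7.88 to 19.5 and 485 to 801 CPM for the same sums. Over 3 endothelium markers library 28 had 100 CPM, beside 40.8 to 77.3 CPM in the other IL-23 libraries and up to 125 CPM in vehicle libraries. Its keratinocyte sum of 34400 CPM was the lowest with IL-23, beside 44000 to 64200 CPM. In each route 3 of 5 macrophage markers passed the test as higher with IL-23, and T cell markers did so in 2 of 5 (oral) and 4 of 5 (intraperitoneal). Of all tested genes, 29.2% did so in oral and 30.8% in intraperitoneal mice. Macrophage sums in vehicle libraries were 106 to 203 CPM (oral) and 144 to 202 CPM (intraperitoneal). T cell sums there were 10.6 to 14.9 and 9.91 to 14.9 CPM. Both sums overlapped between IL-23 and vehicle libraries in each route. Neutrophil markers summed to 1.31 to 6.21 CPM in vehicle and 29.8 to 89.7 CPM in IL-23 libraries, with Ly6g at 0 in vehicle oral libraries. Skeletal muscle markers summed to 1290 to 2970 CPM in vehicle and 564 to 1130 CPM in IL-23 libraries, and adipocyte markers to 265 to 444 and 110 to 169 CPM. The part of these shifts in the results below was not tested, and in bulk RNA fewer cells of a type and less RNA per cell cannot be told apart.

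Sequence near annotated transcript starts is shown first, because 5 of the 8 members with a promoter entry hold the motif that NF-kB binds. The windows run from 250 bases before to 50 after a RefSeq transcript start (GRCm38.p6), and both strands were searched for the 10-base NF-kB consensus motif. A match lay in 9.55% of the 27025 genes with an entry, and in 8.46% of all 32851 windows. Matches in Nfkb2 overlap one another at one place. Capitals mark the matches, and positions count from the transcript start of that window, the first base of which is 1. For Nfkb2, Tnfaip2 and Bcl3 these starts lie inside the gene bounds given further on.
Nfkb2, -49 to -20, chr19:46304688-46304717, + strand: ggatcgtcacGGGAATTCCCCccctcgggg
Nfkb2, -21 to 9, chr19:46304716-46304745, + strand: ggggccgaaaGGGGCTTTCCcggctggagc
Nfkb2, 1 to 30 of a downstream start, chr19:46305695-46305724, + strand: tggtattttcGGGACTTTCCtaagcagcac
Nfkbia, -60 to -1, chr12:55492648-55492707, - strand: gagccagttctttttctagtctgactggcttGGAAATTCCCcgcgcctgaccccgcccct
Tnfaip3, -135 to -1, chr10:19015411-19015545, - strand: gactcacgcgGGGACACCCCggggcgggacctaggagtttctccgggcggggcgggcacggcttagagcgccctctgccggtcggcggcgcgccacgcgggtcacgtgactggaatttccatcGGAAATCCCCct
Bcl3, -8 to 22, chr7:19822734-19822763, - strand: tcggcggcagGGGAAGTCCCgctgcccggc
Tnfaip2, -34 to -5, chr12:111442627-111442656, + strand: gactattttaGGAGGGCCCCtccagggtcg
A match lies within 30 bases before a start in Nfkbia (-29 to -20) and Tnfaip3 (-12 to -3). Tnfaip2 (-24 to -15) and Nfkb2 (-11 to -2) also have one there. Nfkb2 has matches in each of its 3 windows, the last 2 of which overlap, so that the match of the third window is one already found in the second. A further match of the second Nfkb2 window, at -236 to -227, is not printed above. The other window of Tnfaip3 held no match. Bcl3 has one at 3 to 12. These exact letters did not occur in the windows of Tnf, Tnfrsf1b and Rela, which says nothing of binding elsewhere. Nfkb1 and Relb were not searched. A match describes letters, not occupancy.

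Most members were higher in IL-23 mice in both routes, by sizes that ran from 1.13-fold (Relb, oral, not passed) to 12.9-fold (Bcl3, oral). In oral mice 9 of 10 rose and 0 fell (edgeR quasi-likelihood test, Benjamini-Hochberg adjusted p below 0.05 over all genes), where 29.2% of all tested genes were called higher. In intraperitoneal mice 10 of 10 rose, against 30.8% of all genes, and 9 of 10 without library 28. The median log2 fold change of the 10 was 1.37 in oral and 1.42 in intraperitoneal mice, beside -0.06 and -0.02 over all tested genes. Without library 28 the intraperitoneal median was 1.11. In 9 members the lowest IL-23 library of the route was above its highest vehicle library, in each route, as held for 27.9% of all genes in oral and 25.1% in intraperitoneal mice.

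**Figure D1:**
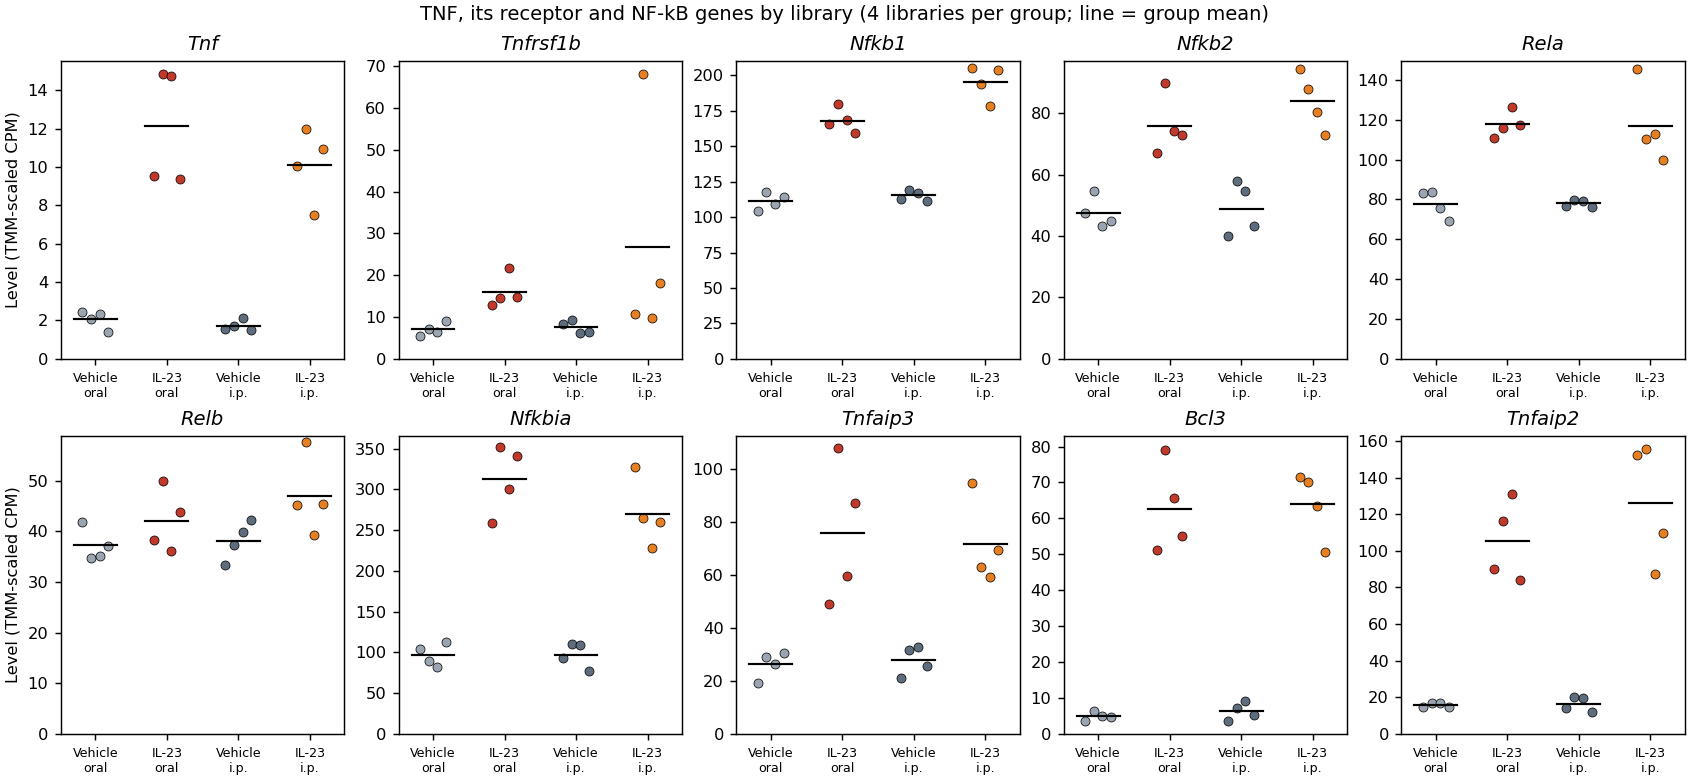
Level of each of the 10 genes (TMM-scaled CPM, linear axis from 0) in the 4 libraries of each group, with the group mean as a line. IL-23 libraries lie above the vehicle libraries of their route for every gene except Relb, and the Tnfrsf1b mean of the IL-23 intraperitoneal group is drawn up by 1 library at 68.1 CPM.

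Tnf and its receptor come first. Tnf (ID 21926, chromosome 17, 35199367 to 35202007) was low in vehicle mice, at 2.07, 2.33, 2.47 and 1.42 CPM in oral libraries 27, 33, 4 and 51 and at 1.57, 2.14, 1.501 and 1.72 CPM in intraperitoneal libraries 49, 59, 67 and 50. With IL-23, oral libraries 14, 24, 68 and 26 stood at 9.52, 14.9, 9.36 and 14.7 CPM. IL-23 intraperitoneal libraries 28, 31, 25 and 61 stood at 12, 7.49, 10.1 and 10.9 CPM. Every IL-23 library thus exceeded every vehicle library, and the oral IL-23 libraries formed a lower and a higher pair. The rise was 5.76-fold in oral mice (log2 fold change 2.53, SE 0.23, edgeR adjusted p = 1.34e-07, higher in 4 of 4 libraries) and 5.79-fold in intraperitoneal mice (2.53, SE 0.24, edgeR adjusted p = 2.27e-07). Tnf was the rarest member in vehicle mice on the per-length scale, at 1.26 ± 0.28 and 1.06 ± 0.18 CPM per kb (SD, n = 4 each).

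Tnfrsf1b (ID 21938, chromosome 4, 145212368 to 145246870) encodes TNFR2. Vehicle libraries lay at 7.07, 6.47, 5.57 and 9.13 CPM (oral 27, 33, 4 and 51) and at 8.37, 6.19, 6.50 and 9.24 CPM (intraperitoneal 49, 59, 67 and 50). Oral IL-23 libraries (14, 24, 68 and 26) had 12.97, 14.5, 14.8 and 21.8 CPM. IL-23 intraperitoneal libraries 28, 31, 25 and 61 had 68.1, 9.75, 10.7 and 18.2 CPM. Library 28 was therefore more than 3 times as high as any other of its group, of which 2 lay within 2 CPM of the highest vehicle library.

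The oral rise of Tnfrsf1b was 2.29-fold (log2 fold change 1.19, SE 0.47, edgeR adjusted p = 0.0362), and it passed the threshold only narrowly. It was lost without IL-23 oral library 68 (adjusted p = 0.0505) or 26 (adjusted p = 0.103), and without vehicle oral library 27 (adjusted p = 0.0632), 33 (adjusted p = 0.0748) or 4 (adjusted p = 0.0854). Over all alternatives the adjusted p ran from 8.54e-05 to 0.103. The lowest came without IL-23 intraperitoneal library 28, which is no oral library but shares the spread estimate of the fit. There the oral log2 fold change was 1.225 (SE 0.22, edgeR adjusted p = 8.54e-05). The intraperitoneal rise was 3.57-fold (1.84, SE 0.47, edgeR adjusted p = 0.00269), and without library 28 the log2 fold change was 0.78 (SE 0.24, edgeR adjusted p = 0.00921). The group mean fell with it from 26.7 ± 27.8 (SD, n = 4) to 12.9 ± 4.65 CPM (SD, n = 3). Library 28 was also the highest of the 16 in summed macrophage, T cell and fibroblast markers, as given above, and the part of those cells in its receptor level was not tested. Across the other libraries the oral library with the most Tnfrsf1b, number 26, also had the highest macrophage marker sum, 317 CPM. Its neutrophil sum (89.7 CPM) was the highest of the IL-23 oral group too. Its T cell and fibroblast sums (14.5 and 531 CPM) were not, with 17.5 and 779 CPM in library 24.

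**Figure D2:**
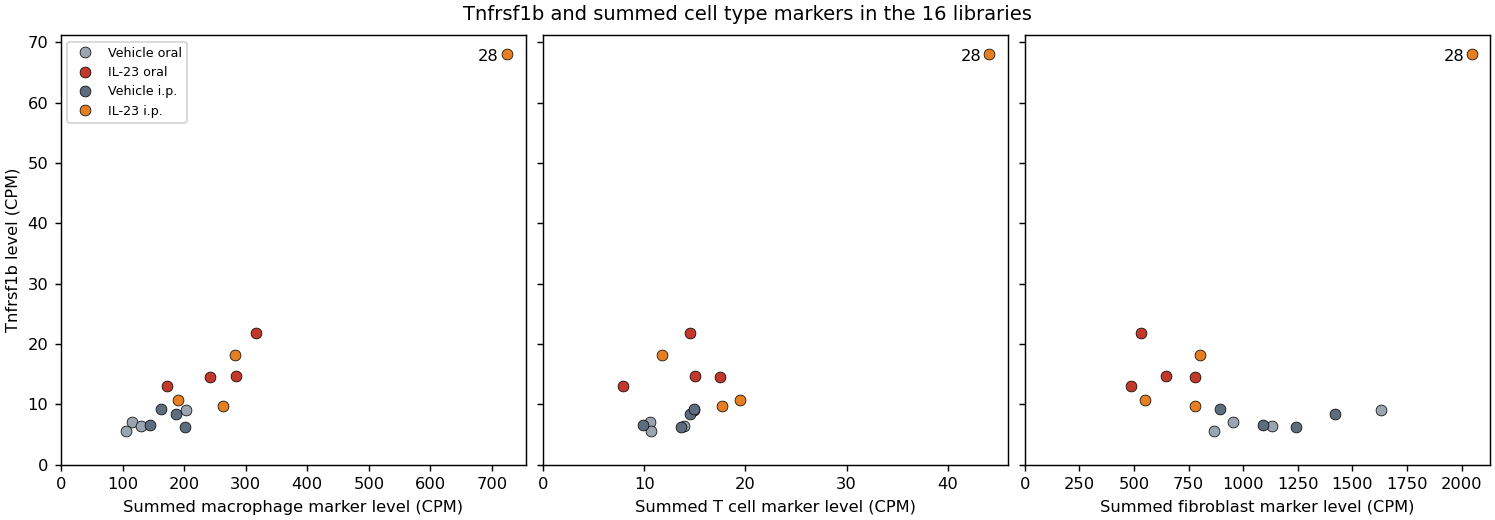
Tnfrsf1b level (CPM) against the summed level of 5 macrophage, 5 T cell and 3 fibroblast marker genes (CPM) in the 16 libraries, coloured by group. Library 28 lies alone at 68.1 CPM and at the highest marker sum in all 3 panels, and the other 15 libraries lie below 22 CPM.

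The subunit genes rose by less. Nfkb1 (ID 18033, chromosome 3, 135584655 to 135691969) encodes p105, the precursor of p50. It ranged from 104 to 118 CPM in vehicle oral and from 159 to 180 CPM in IL-23 oral libraries, and from 112 to 119 and from 178 to 205 CPM in the intraperitoneal groups. Its coefficient of variation was 3.21% to 6.36% over the 4 groups, and each other member had a group above that range. The rise of 1.51-fold in oral mice (log2 fold change 0.60, SE 0.07, edgeR adjusted p = 9.83e-07) and 1.69-fold in intraperitoneal mice (0.76, SE 0.07, edgeR adjusted p = 1.09e-07) was over 9 times its SE in each route.

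Rela (ID 19697, chromosome 19, 5637442 to 5648134) encodes RelA, the transactivating partner of p50. Vehicle libraries spanned 69.1 to 83.6 CPM (oral) and 76.3 to 80.0 CPM (intraperitoneal), and IL-23 libraries 111 to 127 and 99.7 to 146 CPM. Its log2 fold change was 0.60 in oral mice (SE 0.10, edgeR adjusted p = 5e-05) and 0.58 in intraperitoneal mice (SE 0.10, edgeR adjusted p = 7.29e-05), and with plain library size the latter was 0.36 (edgeR adjusted p = 0.000719). Nfkb2 (ID 18034, chromosome 19, 46300994 to 46312400) encodes p100, which is cut to p52 and until then holds RelB back. It spanned 43.3 to 54.6 CPM in vehicle oral and 67.0 to 89.7 CPM in IL-23 oral libraries, and 39.9 to 57.9 and 73.0 to 94.2 CPM in the intraperitoneal groups. The log2 fold changes of Nfkb2 were 0.68 (SE 0.12, edgeR adjusted p = 0.00016) and 0.78 (SE 0.12, edgeR adjusted p = 4.72e-05).

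Relb (ID 19698, chromosome 7, 19606217 to 19629438), the subunit of the alternative branch, changed least. Its vehicle libraries had 34.7, 35.1, 41.9 and 37.1 CPM (oral 27, 33, 4 and 51) and 33.4, 39.8, 42.2 and 37.3 CPM (intraperitoneal 49, 59, 67 and 50). IL-23 oral libraries 14, 24, 68 and 26 had 38.3, 50.0, 43.7 and 36.2 CPM, and IL-23 intraperitoneal libraries 28, 31, 25 and 61 had 57.6, 39.2, 45.2 and 45.4 CPM. The agents overlapped in both routes, and library 28 was the highest of all. In oral mice the log2 fold change was 0.18 with a 95% interval from -0.08 to 0.43 (edgeR adjusted p = 0.216), and its sign turned with plain library size (-0.02). In intraperitoneal mice it was 0.30 (SE 0.12, edgeR adjusted p = 0.0424). That call was lost under 9 of 24 alternatives, among them the removal of library 28 (0.20, edgeR adjusted p = 0.148), of IL-23 libraries 25 (0.32, adjusted p = 0.0508) or 61 (0.32, adjusted p = 0.0535), and of vehicle libraries 49 (0.24, adjusted p = 0.131), 59 (0.32, adjusted p = 0.0541) or 50 (0.29, adjusted p = 0.0755). Over all alternatives the adjusted p of Relb in intraperitoneal mice ran from 0.0154 to 0.595.

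The inhibitor genes rose more. Nfkbia (ID 18035, chromosome 12, 55489409 to 55492647) encodes IkB alpha, which pulls dimers back out of the nucleus and is itself an NF-kB target. Vehicle libraries had 89.0, 82.5, 104.8 and 113 CPM (oral 27, 33, 4 and 51) and 92.8, 109, 76.8 and 110.0 CPM (intraperitoneal 49, 59, 67 and 50). IL-23 oral libraries 14, 24, 68 and 26 had 259, 352, 341 and 301 CPM, and IL-23 intraperitoneal libraries 28, 31, 25 and 61 had 265, 228, 328 and 260.3 CPM. The lowest IL-23 library of all held more than 2 times the highest vehicle library. Nfkbia rose 3.22-fold in oral mice (log2 fold change 1.69, SE 0.14, edgeR adjusted p = 6.1e-08) and 2.78-fold in intraperitoneal mice (1.48, SE 0.14, edgeR adjusted p = 2.82e-07).

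Tnfaip3 (ID 21929, chromosome 10, 19000910 to 19015410) encodes A20, a ubiquitin-editing enzyme that shuts down signalling at the TNF receptor complex. Its vehicle libraries had 28.9, 26.3, 19.3 and 30.7 CPM (oral 27, 33, 4 and 51) and 21.2, 32.8, 25.5 and 31.7 CPM (intraperitoneal 49, 59, 67 and 50). In the IL-23 groups, oral libraries 14, 24, 68 and 26 had 49.1, 108, 87.1 and 59.6 CPM, and IL-23 intraperitoneal libraries 28, 31, 25 and 61 had 63.1, 59.2, 94.7 and 69.3 CPM. All IL-23 libraries were above all vehicle libraries, and the IL-23 oral group spread over more than a 2-fold range. Its log2 fold changes were 1.54 (SE 0.23, edgeR adjusted p = 1.85e-05) in oral and 1.37 (SE 0.23, edgeR adjusted p = 7.08e-05) in intraperitoneal mice.

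Bcl3 (ID 12051, chromosome 7, 19808462 to 19822824) had the largest fold change of the 10 in both routes. It encodes a nuclear IkB family protein that binds p50 and p52 dimers and can help them activate or repress genes. Vehicle libraries had 6.46, 5.07, 3.50 and 4.77 CPM (oral 27, 33, 4 and 51) and 3.596, 9.13, 5.30 and 7.26 CPM (intraperitoneal 49, 59, 67 and 50). IL-23 oral libraries 14, 24, 68 and 26 had 51.1, 79.1, 55.1 and 65.7 CPM, and IL-23 intraperitoneal libraries 28, 31, 25 and 61 had 70.1, 63.5, 71.5 and 50.6 CPM. The lowest IL-23 library held more than 5 times the highest vehicle library. The rise was 12.9-fold in oral mice (log2 fold change 3.69, SE 0.24, edgeR adjusted p = 4.81e-09) and 10.2-fold in intraperitoneal mice (3.36, SE 0.23, edgeR adjusted p = 1.18e-08). Of its merged exon bases, 161 are shared with an antisense gene, Gm16175, and without a stated strand setting the reads of the pair cannot be told apart.

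Tnfaip2 (ID 21928, chromosome 12, 111442450 to 111455018) was first found as a gene that TNF induces and takes part in membrane protrusions between cells. Vehicle libraries had 16.8, 16.8, 14.6 and 14.6 CPM (oral 27, 33, 4 and 51) and 14.4, 19.5, 12.2 and 19.9 CPM (intraperitoneal 49, 59, 67 and 50). Among IL-23 mice, oral libraries 14, 24, 68 and 26 had 90.3, 116, 83.9 and 131 CPM, and IL-23 intraperitoneal libraries 28, 31, 25 and 61 had 156, 87.6, 152 and 109.6 CPM. The lowest IL-23 library held more than 4 times the highest vehicle library. Tnfaip2 rose 6.71-fold in oral mice (log2 fold change 2.75, SE 0.20, edgeR adjusted p = 1.49e-08) and 7.68-fold in intraperitoneal mice (2.94, SE 0.20, edgeR adjusted p = 1.08e-08). It shares 314 exon bases with an antisense gene, Gm40578, and Nfkb2 shares 531 with a divergent non-coding gene and 299 with Psd.

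**Figure D3:**
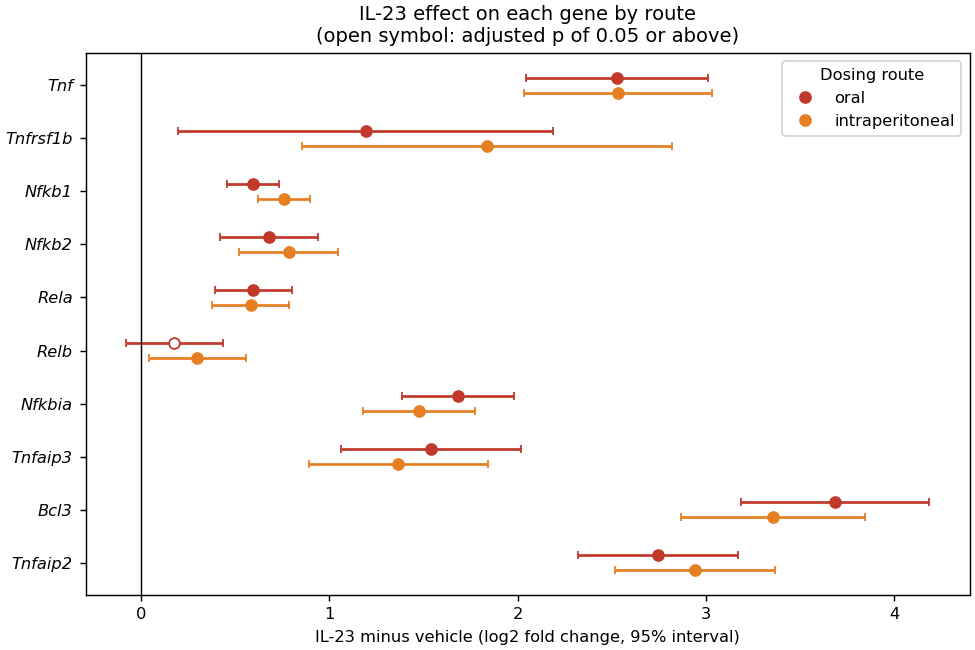
Log2 fold change of IL-23 minus vehicle for each gene, oral and intraperitoneal mice side by side, with 95% intervals from the edgeR fit and open symbols where the adjusted p was 0.05 or above. Bcl3, Tnfaip2 and Tnf lie furthest right, the subunit genes between 0.18 and 0.78, and the 2 routes overlap in their intervals for every gene.

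No difference between the routes was detected for any member. The IL-23 effect in intraperitoneal minus oral mice ran from -0.33 (Bcl3, 95% interval from -1.03 to 0.37) to 0.65 (Tnfrsf1b, from -0.76 to 2.05) on the log2 scale. These intervals combine the SEs of the 2 route effects, a choice made after seeing the data. For Tnf it was 0.01 with an interval from -0.69 to 0.70, which reaches a 1.63-fold difference. edgeR called 0 of 14671 genes for this difference (0%), 796 had an unadjusted p under 0.05, DESeq2 called 1 (Rbm4, named after its value was seen) and limma-voom 0. Between vehicle mice of the 2 routes edgeR likewise called 0 genes (0%), with 1087 at an unadjusted p under 0.05, 1 by DESeq2 (Cdk8, named after its value was seen) and 0 by limma-voom. In vehicle mice the largest route difference of a member was 0.35 on the log2 scale (Bcl3, SE 0.26, edgeR adjusted p = 0.826).

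Levels were set side by side per kb of the longest coding transcript. Nfkbia was the highest member in each group, at 61.8 ± 8.97 CPM per kb in vehicle oral and 198.5 ± 26.8 in IL-23 oral mice (SD, n = 4). In vehicle oral mice Rela (28.7 ± 2.54), Nfkb1 (27.0 ± 1.45), Relb (16.9 ± 1.49) and Nfkb2 (12.4 ± 1.30 CPM per kb) followed, then Tnfaip3, Tnfaip2 and Bcl3 at 5.95 ± 1.14, 4.18 ± 0.34 and 2.67 ± 0.66, and Tnfrsf1b (1.85 ± 0.40) and Tnf last. Rela and Nfkb1 lay within 1 SD of each other, as did Tnfrsf1b and Tnf within 2 SD. In IL-23 oral mice Bcl3 moved from the eighth to the fourth place, at 33.9 ± 6.78 CPM per kb, above Tnfaip2 (28.0 ± 5.88), Nfkb2 (19.7 ± 2.53), Relb (19.03 ± 2.80) and Tnfaip3 (17.2 ± 6.04), the last 3 of which lay within their SDs. The order was the same in intraperitoneal IL-23 mice except that Nfkb1 (47.4 ± 3.01) stood above Rela (43.1 ± 7.32), and Tnfrsf1b above Tnf, neither beyond its spread. Lengths from all merged exons would put Nfkb1, with 12061 rather than 4117 bases, further down.

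The balance between pairs of genes within a library is free of the scaling between libraries, apart from the 0.5 CPM added to each gene. In all, 5 pairs were compared in 2 routes, 10 tests. With 4 libraries a group the exact permutation test can go no lower than p = 0.0286. Of the 10 tests 3 reached that value, and none passed after adjustment (smallest adjusted p = 0.0952). A pair at this floor can pass the adjustment over 10 tests only if most of the tests reach it too. The ratio of Nfkbia to Rela was 1.06, 1.09, 1.26 and 1.64 in vehicle oral and 2.33, 3.03, 2.89 and 2.37 in IL-23 oral libraries. It was 1.21, 1.37, 1.01 and 1.37 in vehicle and 2.40, 2.02, 2.25 and 2.60 in IL-23 intraperitoneal libraries. The shift was 1.09 on the log2 scale in oral and 0.91 in intraperitoneal mice (2-sided exact permutation p = 0.0286 in each, adjusted p = 0.0952 over the 10). Inhibitor message per RelA message was thus 2.12 times as high in oral and 1.88 times as high in intraperitoneal IL-23 mice. This difference reached the smallest p the design allows. It failed a correction that a pair at that floor cannot pass by itself, so the adjusted p cannot decide it.

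The ratio of Relb to Rela had shifts of -0.43 and -0.28 in log2 (exact permutation adjusted p = 0.143 and 0.327), with overlapping groups. That of Nfkb2 to Nfkb1 shifted by 0.07 and 0.03 (exact permutation adjusted p = 0.571 and 0.971), from about -1.2 in all 4 groups. The ratio of Tnfaip3 to Tnf shifted by -0.81 in oral and -0.89 in intraperitoneal mice (exact permutation adjusted p = 0.171 and 0.0952). In intraperitoneal mice its log2 values did not overlap, at 2.35 to 3.17 with IL-23 and 3.39 to 3.86 in vehicle (exact permutation p = 0.0286). The added 0.5 CPM weighs on this ratio, since Tnf averaged 2.07 and 1.73 CPM in the oral and intraperitoneal vehicle groups. For Tnfrsf1b to Tnfrsf1a, the gene of TNFR1, the shifts were 0.40 and 0.49 (exact permutation adjusted p = 0.19 and 0.73), and the latter was -0.10 without library 28. Tnfrsf1a itself rose from 234 ± 8.26 to 386 ± 34.2 CPM in oral mice (SD, n = 4 each).

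**Figure D4:**
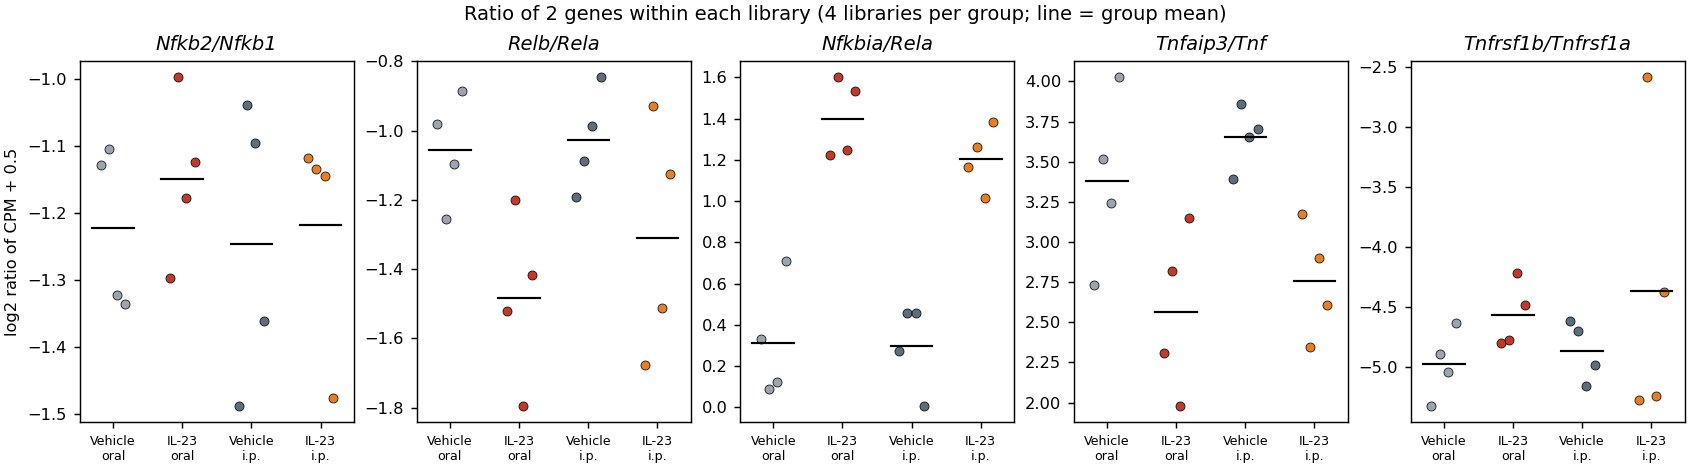
Log2 ratio of 2 genes within each library (CPM + 0.5), in the 4 libraries of each group with the group mean as a line. For Nfkbia over Rela the IL-23 libraries lie between 1.01 and 1.60 and the vehicle libraries between 0.01 and 0.71, and for Nfkb2 over Nfkb1 all groups overlap.

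How pairs of members varied within groups differed widely. After each group's mean was subtracted from log2 CPM, the 45 pairs of members had a median Pearson r of 0.35 over the 16 libraries, from -0.31 to 0.83, and 14 pairs were above 0.5 (16 pairs and a median of 0.34 without library 28). The highest were Nfkb2 with Bcl3 (0.83) and Tnf with Tnfaip2 (0.71). These values describe 16 libraries that share their scaling, and other pairs of genes were not compared. Among 11916 other genes of at least 5 CPM, those most like Tnf by the same measure were Tes (0.85), E2f4 (0.79), Plscr1 (0.78), Srm (0.77) and Tceb3 (0.77), and Tes and E2f4 were still among the 5 without library 28. Those most like Nfkb2 were Ccdc137 (0.86), Mipep (0.83), Bcl3 (0.83), Rexo4 (0.82) and Zmynd19 (0.82). Without library 28 the 5 were Ccdc137, Adsl, Ccm2, Mipep and Zmynd19, and Bcl3 (0.83) was no longer among them. Each set of 5 is the top of 11916 values over 16 or 15 libraries, and how high chance alone would reach was not tested. Tnf had only 13 to 35 counts in vehicle libraries, so counting noise enters its values.

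Other genes of the pathway were read from 7 lists by role. The lists were chosen with earlier results of these data known. Of all genes tested, 29.2% were called higher and 34% lower in oral mice, and 30.8% and 30.9% in intraperitoneal mice. Oral counts are from the fit of all 16 libraries; in the fit without library 28, 1 more oral gene passed as higher in the kinase, alternative branch and other Rel and IkB lists. Of 14 receptor complex genes, which assemble below TNFR1, 6 rose, 1 fell and 7 did not pass in oral mice, and 7, 1 and 6 in intraperitoneal mice (8, 1 and 5 without library 28), with medians of 0.17 and 0.23. Birc3, a ubiquitin ligase of the complex and itself an NF-kB target, rose from 30.2 ± 1.98 to 78.1 ± 2.72 CPM in oral mice (log2 fold change 1.37, SE 0.09, edgeR adjusted p = 8.97e-09). Traf1, an adaptor, rose (1.16 in oral mice, 1.33 in intraperitoneal mice), and the adaptor Traf5 fell from 15.7 ± 2.34 to 9.47 ± 2.60 CPM. Of the 4 shedding genes, 2 rose and 2 fell in each route: Adam17, the protease that releases TNF from the membrane (0.43 in oral mice), and its cofactor Rhbdf2 (0.89) rose, and the ADAM17 inhibitor gene Timp3 (-1.35) and Rhbdf1 (-0.33) fell. Timp3 went from 849 ± 99.8 to 334 ± 47.4 CPM in oral mice, where 2 of 3 fibroblast markers also fell. In intraperitoneal mice Timp3 fell by 1.48 on the log2 scale, and 0 of 3 fibroblast markers were called lower with library 28 included. The fibroblast sum was 2050 CPM in library 28 and 779, 551 and 801 CPM in IL-23 intraperitoneal libraries 31, 25 and 61. Vehicle intraperitoneal libraries had 894 to 1420 CPM. The part of fibroblasts in the fall of Timp3 was not tested. With plain library size Adam17 had 0.23 in oral and 0.26 in intraperitoneal mice and Rhbdf1 -0.53 and -0.60, all still called.

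The genes of the kinases that carry the signal to IkB, and of their partners, moved in both directions. Of 7, 2 rose, 2 fell and 3 did not pass in oral mice, and 2, 1 and 4 in intraperitoneal mice (the same counts without library 28, though not the same genes, since Tab3 then passed), with medians of 0.06 and 0.11. The scaffold gene Ikbkg, which encodes NEMO, fell from 71.5 ± 5.54 to 46.8 ± 2.82 CPM in oral mice (log2 fold change -0.61, SE 0.08, edgeR adjusted p = 7.92e-06). The TAK1 partner genes split in oral mice, with Tab3 higher (0.31) and Tab1 lower (-0.28), and neither passed in intraperitoneal mice (0.21 and -0.10). The oral rise of Tab3 was lost without IL-23 oral library 26 (0.24, edgeR adjusted p = 0.0515), and its intraperitoneal value passed without library 28 (0.28, adjusted p = 0.0215), vehicle library 49 (0.29, adjusted p = 0.0217) or IL-23 oral library 26 (0.22, adjusted p = 0.0498). Ikbkb, the kinase IKK beta, rose by 0.21 and 0.18, calls that depended on the scaling: with plain library size the values were 0.017 and -0.036. Under that scaling Tab3 had 0.11 in oral mice (edgeR adjusted p = 0.344) and Ikbkg -0.56 in intraperitoneal mice, and Tab1 was called in both routes (-0.47 and -0.32). The intraperitoneal call of Ikbkb was also lost without IL-23 intraperitoneal library 31 (0.14, edgeR adjusted p = 0.0614).

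In the alternative branch, 9 of 13 genes could be tested, and 5 rose, 1 fell and 3 did not pass in oral mice (4, 1 and 4 in intraperitoneal mice, with or without library 28). The medians were 0.59 and 0.70. Ltb, a ligand of the lymphotoxin receptor, rose from 0.89 ± 0.39 to 3.76 ± 1.89 CPM, and Map3k14, the kinase NIK, from 13.2 ± 1.41 to 36.1 ± 9.17 CPM in oral mice. The intraperitoneal log2 fold change of Ltb was 2.16, and 1.34 without library 28 (edgeR adjusted p = 0.012). Tnfrsf11a, the RANK receptor gene, fell from 18.6 ± 2.99 to 10.02 ± 2.19 CPM. In intraperitoneal mice the call of Tnfrsf11a (-0.59) was lost without IL-23 library 25 (-0.41, edgeR adjusted p = 0.0694) or vehicle library 49 (-0.56, adjusted p = 0.0506) or 50 (-0.52, adjusted p = 0.0595).

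Of the 5 other Rel and IkB genes, 4 rose and 1 did not pass in oral mice, and 5 rose in intraperitoneal mice (4 without library 28), with medians of 0.84 and 1.16. Nfkbiz and Nfkbid, which like Bcl3 encode nuclear IkB proteins, rose most: Nfkbiz from 36.7 ± 1.99 to 184 ± 26.0 CPM and Nfkbid from 4.79 ± 1.06 to 20.8 ± 4.88 CPM in oral mice (log2 fold changes 2.32 and 2.14). Of 13 partners of A20 and other brakes, 7 rose, 2 fell and 4 did not pass in oral mice and 7, 1 and 5 in intraperitoneal mice (the same counts without library 28), with medians of 0.35 and 0.26. Zc3h12a, an RNase that cuts inflammatory messages, rose by 3.43 and 3.20, and Zfp36, whose product destabilises Tnf mRNA, by 2.03 and 1.39. The deubiquitinase genes Otud7b (-0.39 and -0.27) and Cyld (-0.36 in oral mice, called, and -0.07 in intraperitoneal mice, not called) were lower, and the difference of Cyld between routes did not pass (0.29, edgeR adjusted p = 0.875). With plain library size Otud7b had -0.59 and -0.48 and Cyld -0.56 in oral mice.

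Of 22 NF-kB target genes, a list chosen with earlier results of these data known, 21 were tested. In oral mice 18 rose, 0 fell and 3 did not pass, beside 29.2% of all tested genes called higher (30.8% in intraperitoneal mice). In intraperitoneal mice 20 rose, 0 fell and 1 did not pass (18, 0 and 3 without library 28). The medians were 2.23 and 2.24, and 1.80 in intraperitoneal mice without library 28. Lcn2, an iron-scavenging protein, rose most in oral mice (log2 fold change 5.42, SE 0.23, edgeR adjusted p = 5.65e-11), followed by the neutrophil chemokine gene Cxcl1 (4.90, SE 0.44, edgeR adjusted p = 1.29e-07). Neutrophil marker sums rose with these genes, as given above.

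**Figure D5:**
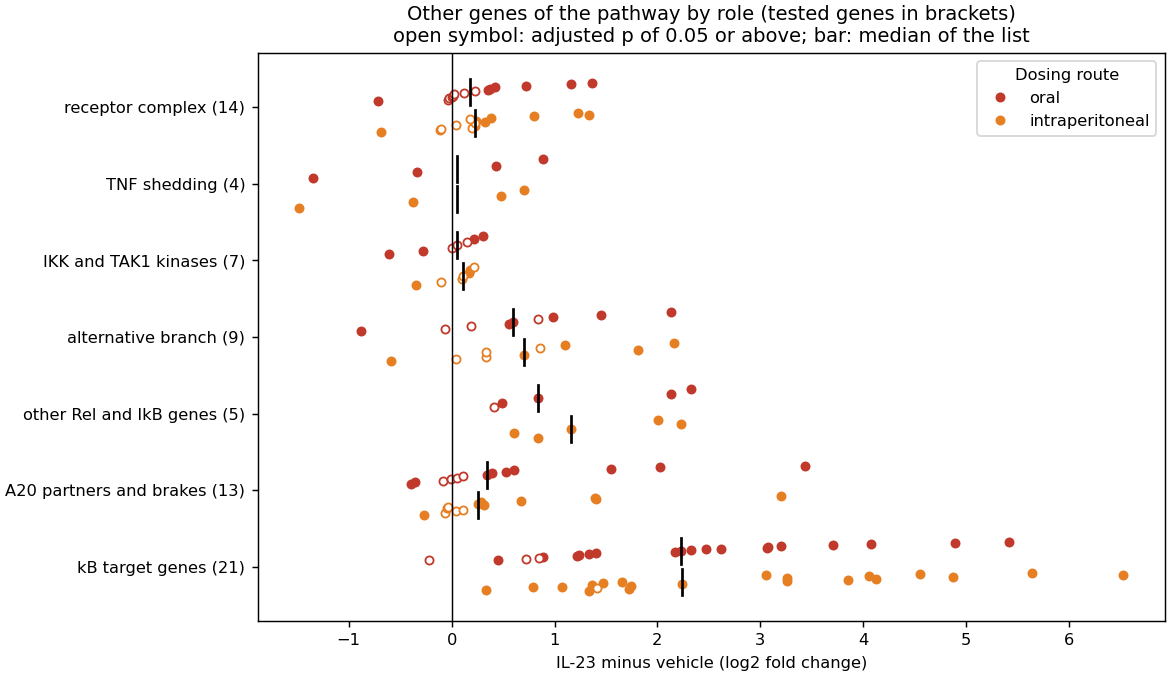
Log2 fold change of IL-23 minus vehicle for the tested genes of 7 pathway lists, oral and intraperitoneal, with open symbols where the adjusted p was 0.05 or above and a bar at each list's median. The kinase and receptor complex lists have medians from 0.06 to 0.23, and the target genes have medians of 2.23 and 2.24. Receptor complex genes spread from -0.71 (Traf5) to 1.37 (Birc3) in oral mice.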

How the data were processed

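The authors deposited 1 table of unscaled read counts, whole numbers by gene and library, whose sums differ between libraries. Per the labels' protocols, libraries came from a stranded total RNA kit. Per the submitters' processing notes, the tools were FastQC, STAR and featureCounts (Subread 1.5.0), and GRCm38 was the build; the strand setting, annotation release and handling of multi-mapped reads were not stated in them. Depth was 6381990 to 14432930 counts. The test was that of edgeR 4.0.16 under R 4.3.3, with TMM factors, filterByExpr on the 4 groups (minimum count 10), a quasi-likelihood fit of group means over all 16 libraries, 2-sided, Benjamini-Hochberg adjustment over 14671 genes, threshold 0.05. The SE is the log2 fold change over the root of the F statistic, and 95% intervals use it; for the difference between routes, intervals use the root of the summed squares of the 2 route SEs. Levels are TMM-scaled CPM. Gene pairs used log2 of CPM + 0.5 and exact permutation (SciPy 1.17.1). Replicates differed beyond sampling noise (24 pairs, chi-square per degree of freedom 5.49 to 47.1). Positions and promoters are RefSeq's (GRCm38.p6), transcript lengths GENCODE M21's. Alternatives were RLE, upper-quartile and plain library size scaling, 2 other filters, DESeq2 1.42.0, limma-voom (limma 3.58.1), only the groups compared, each library left out, and other added values. Fits were tested on simulated data. Members and lists were chosen with earlier results of these data known. From each other list, the 2 called genes with the largest oral rise and the 2 with the largest fall are named; Tnfrsf1a is named for its pair.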

Additional observations from a re-analysis of the deposited data

Results flagged for a closer look

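Of 148 sets of 4 libraries (the 10 members, the other named genes and the 5 gene pairs, in each group), 5 held a library far from the other 3 for the range of its group. Chance gives about 1 in 20, or 7.4 of 148. Tnfrsf1b was at 68.1 CPM in IL-23 intraperitoneal library 28, with the next library at 18.2 CPM. Traf1 was at 13.8 CPM in the same library, next to 6.54 CPM. Ikbkb was at 97.7 CPM in IL-23 intraperitoneal library 31, next to 88.2 CPM. Tnfrsf11a was low in IL-23 oral library 14, at 6.73 CPM, next to 11.04 CPM. The log2 ratio of Nfkb2 to Nfkb1 was -1.48 in IL-23 intraperitoneal library 61, next to -1.15.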

How the results depend on the processing

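Of 240 member values under alternatives in oral mice, 234 kept their side of the threshold, and 6, all of Tnfrsf1b, lost the call: 5 by leaving out a library and 1 with plain library size (log2 fold change 0.99, edgeR adjusted p = 0.0865). Of 240 in intraperitoneal mice 231 kept it and 9, all of Relb, lost it, 6 by leaving out a library and 3 with upper-quartile factors (0.20), plain library size (0.09) or only the groups compared (0.29). Plain library size moved the median of all genes to -0.26 in oral and -0.23 in intraperitoneal mice, and the share of calls that were higher from 46.2% to 31% and from 49.9% to 31.5% (2942 higher and 6553 lower in oral mice, 2871 and 6248 in intraperitoneal mice). Upper-quartile factors moved the intraperitoneal median to -0.119 from -0.0176; the log2 fold changes of the members other than Relb stayed above 0 in both routes under all 3 other scalings. One value turned its sign against a call: Ikbkb in intraperitoneal mice, -0.036 with plain library size. DESeq2 called 1 gene for the difference between routes and 1 between vehicle routes, against 0 in edgeR. Leaving out 1 library gave 8457 to 9768 called genes in oral and 8310 to 9092 in intraperitoneal mice, 8 to 9 and 9 to 10 members called higher, and 0 for both route contrasts. Another 45 values changed sign below the threshold. With 3 against 4 libraries an exact p cannot go below 0.0571, so leaving a library out says nothing of the gene pairs. No paired analysis was possible because the groups share no replicate number. Tnf had 13 to 35 counts in vehicle libraries, which limits its precision there.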
